A study of Mus musculus with 17 samples.

Results

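The microRNAs miR-223, miR-155, miR-146a, miR-146b and miR-21a, which are studied in myeloid cells and in inflammation, were followed in fecal exosomes of mice that lack interleukin 10. They were chosen by name, with both arms of each hairpin, which gives 10 mature miRNAs. Earlier results of these data were known when they were chosen. The count table used here gave values for 7 of these 10, among 1487 small RNAs (smRNAs) of which 1439 are mature miRNAs. These 7 are mmu-miR-223-3p, mmu-miR-223-5p, mmu-miR-155-5p, mmu-miR-146a-3p, mmu-miR-146b-5p, mmu-miR-146b-3p and mmu-miR-21a-5p, hereafter without the prefix for mouse, while miR-155-3p, miR-146a-5p and miR-21a-3p were not analysed here. Of the 7, 5 passed the filter on low counts, and miR-155-5p and miR-146b-3p did not.

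All libraries came from IL-10 KO mice on the C57BL/6J background, a model of inflammatory bowel disease, which were obtained at 4 weeks of age and housed 1 to a cage under conventional conditions. The deletion is present at both time points, so the comparison is of time within knockout animals, and wild-type animals were not analysed here. The start-point group held 10 libraries from 10 mice, 7 male and 3 female, and the end-point group held 7 libraries from 6 of those mice, 5 from males and 2 from females. End-point libraries 1 and 2 both carried the label of mouse 1. The labels give neither the age at each time point nor a disease score, so age and disease cannot be told apart. Exosomes are vesicles shed by cells, and these were precipitated from filtered fecal homogenate. The cells that released them, and whether more cells or more RNA per cell lay behind a level, cannot be told apart in such material.

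A miRNA hairpin is cut into a 5p and a 3p strand, and usually one of these is loaded into an Argonaute protein and guides it to messenger RNAs through its seed, the bases near its 5′ end. MiR-223 is characteristic of neutrophils and other myeloid cells, where it restrains granulocyte production and the inflammasome component Nlrp3, and it is often high in inflamed gut. MiR-155 is induced in activated macrophages and lymphocytes, represses Socs1 and Inpp5d, and is held down by interleukin 10, the cytokine these mice lack. MiR-146a and miR-146b are induced through NF-kB and act back on that pathway by repressing Irak1 and Traf6. MiR-21a is made in many cell types, epithelium included, and represses Pdcd4.

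The sequences below show which members share a seed and therefore targets, and which could exchange reads. They are the RefSeq mature sequences for mouse assembly GRCm38.p6, written 5′ to 3′, with the seed (bases 2 to 8) in capitals. All 10 listed members matched a RefSeq entry by name, and miR-21c is added because it was the only other measured miRNA with the seed of a member.
miR-223-3p: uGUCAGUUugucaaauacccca
miR-223-5p: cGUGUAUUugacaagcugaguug
miR-155-5p: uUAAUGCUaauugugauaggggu
miR-146a-5p: uGAGAACUgaauuccauggguu
miR-146b-5p: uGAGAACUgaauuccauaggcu
miR-146a-3p: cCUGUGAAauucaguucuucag
miR-146b-3p: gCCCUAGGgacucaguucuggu
miR-21a-5p: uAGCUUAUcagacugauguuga
miR-21c: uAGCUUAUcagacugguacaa

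MiR-146a-5p and miR-146b-5p carry one seed, GAGAACU, and their 22 bases differ only by G18A and U21C, counted from 1 at the 5′ end of miR-146a-5p. Only miR-146b-5p of this pair had a value, and how reads of the pair were assigned is not stated in the sources used here, so its counts may hold reads of either. The 3p arms of the pair have different seeds. MiR-21a-5p and miR-21c have the seed AGCUUAU and the same first 15 bases, and differ by 5 edits in all. No other measured miRNA lay within 3 edits of a member.

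The hairpins lie in different surroundings on GRCm38.p6, read against the GENCODE vM21 annotation. Mir223 is on chromosome X from 96242817 to 96242926 on the plus strand, inside an annotated exon of the noncoding gene F630028O10Rik. Mir155 is on chromosome 16 from 84714140 to 84714204, within an exon of its host transcript Mir155hg. Mir146, the gene of miR-146a, is on chromosome 11 from 43374397 to 43374461 on the minus strand and overlaps no other annotated gene. Mir146b is on chromosome 19 from 46342762 to 46342870, in an intron of Mfsd13a. Mir21a is on chromosome 11 from 86584067 to 86584158 on the minus strand, where the annotation places an exon of Vmp1.

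Total counts per library ran from 87527 to 178075 at the start-point and from 32320 to 161862 at the end-point. Totals under 75000 counts occurred only at the end-point, in libraries 1, 3 and 7. A level of 3 counts, taken as the lowest that can be read, was 16.8 CPM (counts per 1000000 counts of the library) in the deepest library and 92.8 CPM in the shallowest. The members together held 0.193 ± 0.0700% of counts at the start-point (SD, n = 10; 0.119 to 0.324%) and 0.117 ± 0.0711% at the end-point (SD, n = 7; 0.0643 to 0.274%), so their values rest on few counts.

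MiR-21a-5p was the most abundant member, with a mean of 855 CPM over the 17 libraries and 55.1% of all member counts. MiR-223-3p followed at 260 CPM, then miR-223-5p at 155 CPM, miR-146a-3p at 142 CPM, miR-146b-5p at 99.6 CPM, miR-155-5p at 72.3 CPM and miR-146b-3p at 29.0 CPM. Below miR-21a-5p the order was loose, with ranges that overlapped widely. The mean of miR-223-3p was 168 CPM without end-point library 4, and at the start-point alone it lay, at 147 CPM, under miR-223-5p at 201 CPM and miR-146a-3p at 192 CPM. MiR-21a-5p stood at a median rank of 214.5 among the smRNAs of a library, so none of these miRNAs was among the dominant species of the fecal vesicles.

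**Figure D1:**
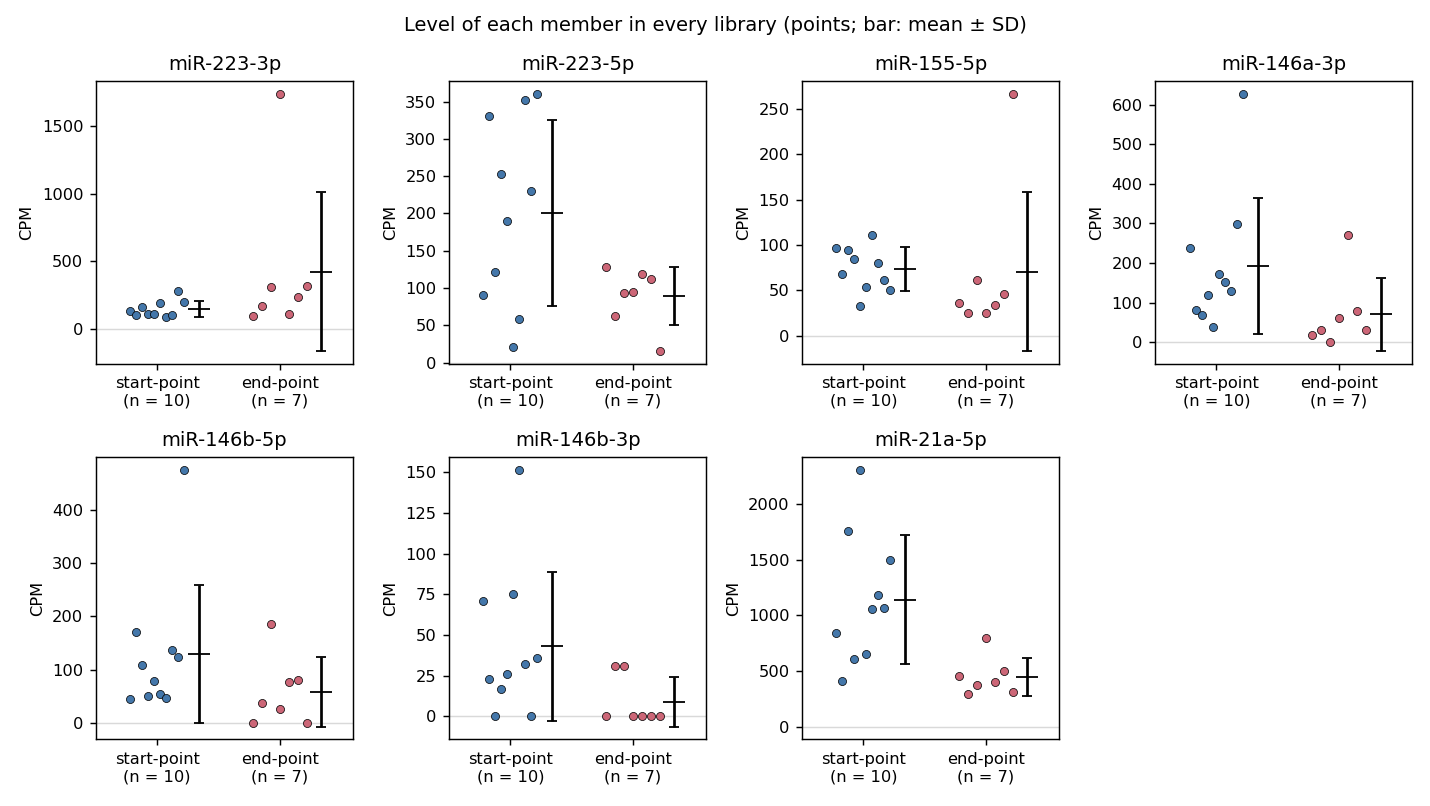
CPM of the 7 members in each of the 10 start-point and 7 end-point libraries, 1 panel a member, with each point a library and bars for mean ± SD. A single end-point library at 1737 CPM sets the upper end of miR-223-3p, and the end-point values of miR-21a-5p all lie under the start-point median of 1065 CPM.

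MiR-223-3p, the strand through which miR-223 acts in granulocytes, was the only member that changed between the time points by the test across all smRNAs. At the start-point its lowest, median and highest values were 87.5, 120.2 and 277 CPM (147 ± 59.6, SD, n = 10; 9 to 36 counts). At the end-point they were 91.3, 232 and 1737 CPM (423 ± 586, SD, n = 7; 5 to 203 counts). The time points overlapped: 5 of the 7 end-point values lay above the start-point median, and 3 of them above every start-point value. The highest came from end-point library 4, from male mouse 5, with 203 counts and a 95% Wilson interval of 1514 to 1992 CPM that covers counting error only. There miR-223-3p ranked 78, whereas in the other libraries it ranked between 339.5 and 1130.

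The log2 fold change of miR-223-3p, end-point over start-point, was 2.39 ± 0.59 (SE), with an adjusted p of 0.00417 by the edgeR quasi-likelihood test. It was therefore the 1 of 5 tested members called higher, against 16.1% of the 1270 smRNAs tested, and none of the 5 was called lower. In either direction 402 smRNAs, or 31.7%, were called (205 higher, or 51.0% of the calls), and 30.0% of 444 calls were higher with library totals in place of TMM factors, so scaling moved directions in this table. With library totals the miR-223-3p value was 1.55 with an adjusted p of 0.0296. Relative to the median of all smRNAs tested, which was -0.19 with TMM and -0.66 with totals, the change was 2.58 and 2.21 on the log2 scale.

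This call rested on few animals. Without end-point library 4 the end-point mean was 204 ± 96.7 CPM (SD, n = 6), the log2 fold change was 1.06, and the edgeR adjusted p was 0.0564. With mouse identity as a replicate block, the log2 fold change was 1.44 (edgeR adjusted p 0.237), a fit that called 4.98% of 1185 smRNAs and 0 of the 5 tested members. The limma-voom value was 1.38 with an adjusted p of 0.0600. The TMM factor of end-point library 4 was 0.555, which raises its scaled value over the plain CPM.

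Within the 6 mice with both time points, scaled log2 levels of miR-223-3p were higher at the end-point in 6 of 6, with the 2 end-point libraries of mouse 1 averaged. The differences were 4.70 in mouse 5, 1.92 in mouse 9, 0.76 in mouse 11, 0.50 in mouse 3, 0.36 in mouse 7 and 0.15 in mouse 1, with a median of 0.63. For mouse 1, whose end-point value is the mean of its 2 libraries, the plain CPM was 129 at both time points. Its 2 end-point libraries ran in opposite directions. The scaled log2 level was 7.49 at the start-point, 6.43 in end-point library 1 and 8.86 in end-point library 2. A large difference was thus seen in mouse 5 and a smaller one in mouse 9, while the other 4 mice differed by under 1 log2 unit.

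**Figure D2:**
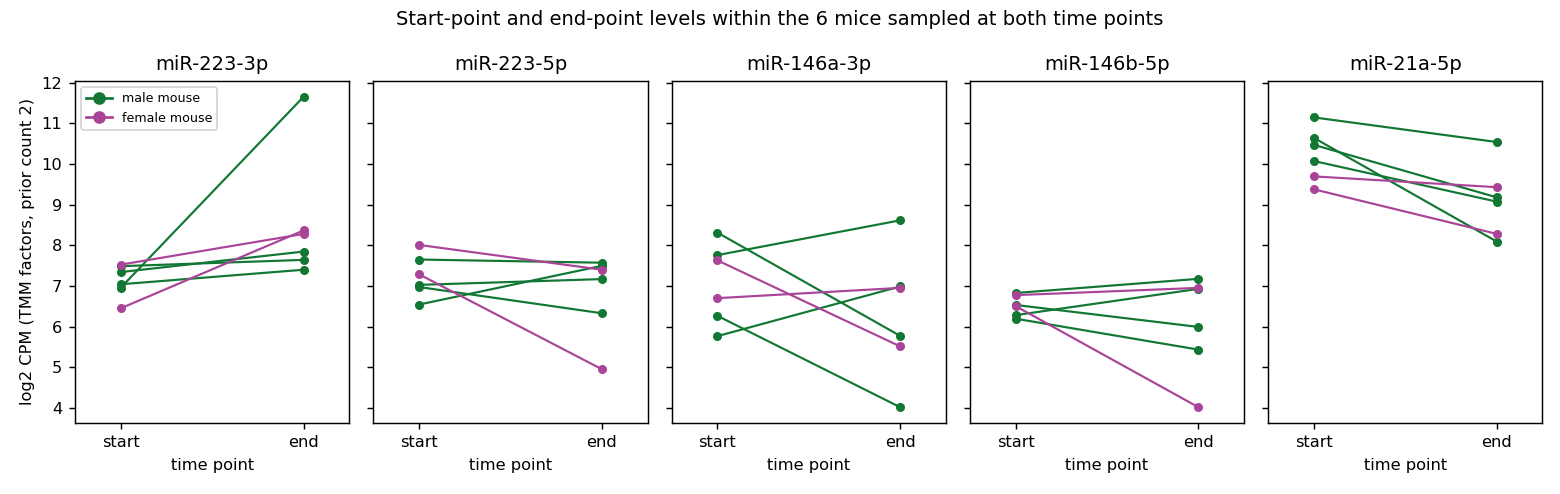
Log2 CPM with TMM factors of the 5 tested members at the start-point and the end-point, 1 line for each of the 6 mice with both (male green, female purple; mouse 1 at the end-point is the mean of 2 libraries). The end-point value lies above the start-point value for miR-223-3p in 6 of 6 mice and below it for miR-21a-5p in 6 of 6, while the other members run both ways. For miR-223-3p in mouse 1, end-point library 1 alone lies below the start-point value and end-point library 2 above it.

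MiR-223-5p, the opposite strand of the same hairpin, was not called, and its values tended the other way from those of miR-223-3p. Its lowest, median and highest values were 21.5, 210.2 and 360.4 CPM at the start-point (201 ± 125, SD, n = 10) and 15.7, 94.1 and 128 CPM at the end-point (89.0 ± 38.9, SD, n = 7). All 7 end-point values lay below the start-point median, but within the start-point range apart from the lowest. The lowest values came from 2 counts in start-point library 6 and 1 count in end-point library 7, under the floor of 3 counts. The log2 fold change was -0.44 ± 0.48 (SE) (edgeR adjusted p 0.511), and it was 0.14 without the 3 libraries under 75000 counts. Relative to the median of all smRNAs tested it was -0.24 with TMM and -0.48 with totals. Within mice miR-223-5p was higher in 2 and lower in 4.

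A ratio of the arms within a library does not depend on scaling between libraries. Summed over libraries, miR-223-5p had 271 counts and miR-223-3p 198 at the start-point, against 63 and 313 at the end-point. The 5p arm exceeded the 3p arm in 5 of 10 start-point and 2 of 7 end-point libraries. The mean log2 ratio of 5p to 3p, with 0.5 added to each count, was 0.16 ± 1.39 at the start-point (SD, n = 10; -2.89 to 1.72) and -1.62 ± 1.76 at the end-point (SD, n = 7; -4.15 to 0.45). The difference was -1.78 (exact two-sided permutation test, p 0.0348). After adjustment over 334 hairpins with both arms, of which 26.9% were called, the adjusted permutation p was 0.0945, so the shift toward the 3p arm did not pass. Without start-point library 6, which had the lowest ratio of its group, it was -2.12 with an adjusted permutation p of 0.0283, and without end-point library 4 it was -1.36 with an adjusted permutation p of 0.181. Within the 6 mice with both time points the mean difference was -1.94 (exact permutation test by sign flips, p 0.125).

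**Figure D3:**
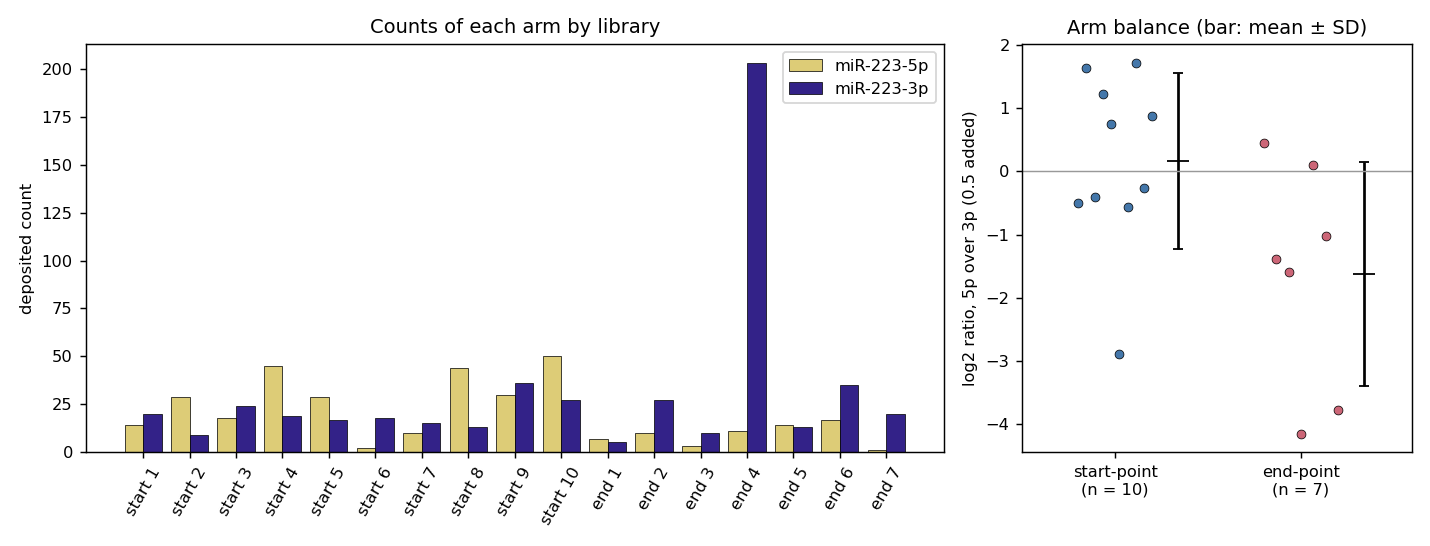
Counts of the 5p and 3p arms of miR-223 in each library (left) and the log2 ratio of 5p to 3p counts by time point with mean ± SD (right). Start-point ratios run from -2.89 to 1.72 and end-point ratios from -4.15 to 0.45, with overlap.

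MiR-155-5p, the guide strand that macrophages induce on activation, was near the floor of the assay. Its lowest, median and highest values were 32.8, 74.3 and 111 CPM at the start-point (73.3 ± 24.2, SD, n = 10; 5 to 19 counts) and 24.7, 36.5 and 266 CPM at the end-point (70.7 ± 87.2, SD, n = 7; 2 to 17 counts). All end-point values but one were at or under 61.9 CPM and under the start-point median, and the exception was end-point library 7, from a female mouse, with 17 counts (95% Wilson interval 166 to 426 CPM). MiR-155-5p did not pass the filter, and with no filter its log2 fold change was 0.10 (edgeR adjusted p 0.900). Any difference was not detectable at this depth.

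The miR-146 members had lower end-point values in most libraries but no call. MiR-146a-3p and miR-146b-3p do not carry the seed of the 5p arms, and miR-146a-5p had no value. MiR-146a-3p ran from 39.3 over a median of 139.8 to 627 CPM at the start-point (192 ± 172, SD, n = 10) and from 0 over 31.3 to 270.1 CPM at the end-point (70.0 ± 92.0, SD, n = 7). Its end-point values lay below the start-point median in 6 of 7 libraries, with end-point library 5 as the exception. They lay below every start-point value in 4, end-point libraries 1, 2, 3 and 7, from 1, 5, 0 and 2 counts. In the shallow libraries 1, 3 and 7 a level of 3 counts is 54.8, 92.8 and 47.0 CPM, above the lowest start-point value. The values of miR-146a-3p in these shallow libraries therefore cannot be read. The log2 fold change was -0.57 ± 0.61 (SE) (edgeR adjusted p 0.496). Relative to the median of all smRNAs tested it was -0.38 with TMM and -0.68 with totals.

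MiR-146b-5p, which has the seed shared with miR-146a-5p, also had 1 far higher start-point value. It ran from 45.2 over a median of 93.3 to 476 CPM at the start-point (129 ± 129, SD, n = 10) and from 0 over 37.1 to 186 CPM at the end-point (57.7 ± 64.9, SD, n = 7). End-point libraries 1 and 7, both shallow, had 0 counts, while the highest end-point value, in shallow library 3, came from 6 counts. The log2 fold change was -0.48 ± 0.57 (SE) (edgeR adjusted p 0.545). Relative to the median of all smRNAs tested it was -0.29 with TMM and -0.57 with totals. For both miRNAs the direction turned without the 3 shallow libraries, to 0.26 and 0.05, and within mice each was higher in 3 and lower in 3.

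MiR-146b-3p, the opposite strand, was read only sparsely. It ran from 0 to 152 CPM at the start-point (43.2 ± 45.8, SD, n = 10) and from 0 to 30.9 CPM at the end-point (8.83 ± 15.1, SD, n = 7). Counts were 0 in 2 of 10 start-point and 5 of 7 end-point libraries. With no filter its log2 fold change was -1.76 (edgeR adjusted p 0.218), and a level under 3 counts cannot be read.

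MiR-21a-5p, the member shared by epithelium and leukocytes, had lower plain CPM at the end-point, a difference whose call depended on scaling. Its lowest, median and highest values were 411, 1065 and 2313 CPM at the start-point (1140 ± 580.4, SD, n = 10; 36 to 353 counts) and 290.4, 405 and 796 CPM at the end-point (447 ± 170.3, SD, n = 7; 12 to 93 counts). All 7 end-point values lay under the start-point median and 4 lay under every start-point value, though the ranges overlapped. The log2 fold change was -0.71 ± 0.49 (SE) (edgeR adjusted p 0.272). With library totals it was -1.32 (edgeR adjusted p 0.0417). Relative to the median of all smRNAs tested it was -0.52 with TMM and -0.67 with totals.

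Within mice miR-21a-5p was lower at the end-point in 6 of 6, by 0.27 to 2.55 log2 units and by a mean of 1.13, but the blocked fit made no call. Without the 3 libraries under 75000 counts the log2 fold change was -0.10 (edgeR adjusted p 0.901). MiR-21c, with the same seed, had 175 ± 80.4 CPM at the start-point (SD, n = 10; 91.4 to 304 CPM) and 34.4 ± 36.5 CPM at the end-point (SD, n = 7; 0 to 94.1 CPM). Its log2 fold change was -1.39 ± 0.56 (SE) (edgeR adjusted p 0.0617), so it was not called either. It was called without end-point library 4, at -1.82 (edgeR adjusted p 0.0243), and by DESeq2 (adjusted p 0.0156) and limma-voom (adjusted p 0.0137). With the replicate block it was not called, at -1.77 (edgeR adjusted p 0.175). Reads from the shared first bases could have been assigned to either miRNA.

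**Figure D4:**
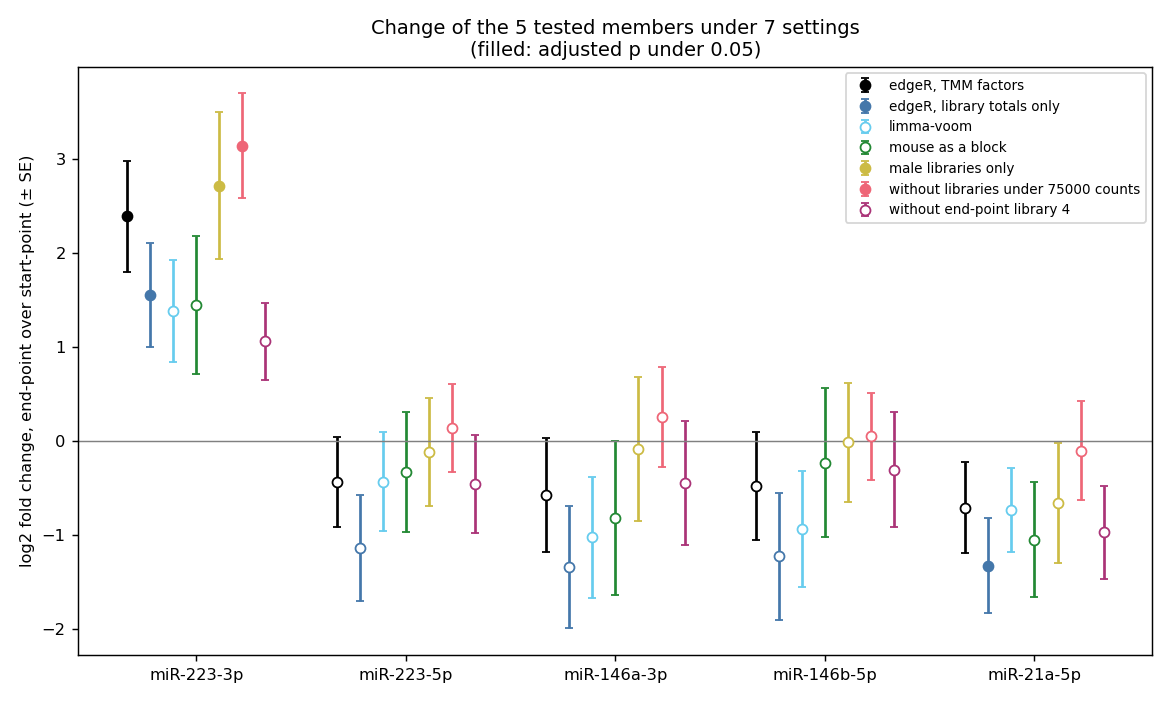
Log2 fold change (end-point over start-point) ± SE of the 5 tested members under 7 ways of fitting, with filled points where the adjusted p was under 0.05. MiR-223-3p stays above 0 in each, from 1.06 without end-point library 4 to 3.14 without the libraries under 75000 counts, while the other 4 lie near or under 0.

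No member had time points that were free of overlap (0 of 7), against 5.59% of the 1270 smRNAs tested. The median log2 fold change of the 5 tested members was -0.48, beside -0.19 for all smRNAs tested. Over the 17 libraries, Spearman correlations between pairs of the 5 ran from -0.38, between the arms of miR-223, to 0.33. Within time points they were different. The miR-223 arms stood at -0.75 over the 10 start-point and 0.57 over the 7 end-point libraries, and miR-223-5p with miR-21a-5p at -0.43 and 0.93. These are descriptions over few libraries, whose members share library depth.

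Sex, tested with time point as a covariate, gave no call for any of the 6 members that passed that filter, and 0% of 1401 smRNAs were called by edgeR. At an unadjusted p under 0.05 edgeR gave 119 smRNAs, none of them a member. MiR-146b-3p did not pass that filter and had 0 counts in 7 of the 17 libraries. With no filter its female over male log2 fold change was -2.31 (edgeR unadjusted p 0.0456, adjusted p 0.561). DESeq2 called 35 smRNAs and neither of the 2 members for which it gave an adjusted p, while the other 4 had none and could not be called. Female over male log2 fold changes were -0.67 ± 0.66 (SE) for miR-223-3p and -0.57 ± 0.53 for miR-21a-5p. They were 0.45 ± 0.60 for miR-146b-5p, 0.16 ± 0.60 for miR-155-5p, 0.10 ± 0.66 for miR-146a-3p and 0.00 ± 0.55 for miR-223-5p. Only 3 of the 10 mice were female.

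The smRNAs whose levels followed miR-223-3p most closely over the 17 libraries were miR-152-5p (Spearman rho 0.95), the liver-enriched miR-122-5p (rho 0.80) and a piRNA locus named piR_000691 (rho 0.75). MiR-152-5p rose from 67.3 ± 38.7 CPM at the start-point (SD, n = 10) to 207 ± 132 CPM at the end-point (SD, n = 7), a log2 fold change of 2.24 (edgeR adjusted p 0.00190, and 0.0826 with the replicate block). MiR-122-5p rose from 54.8 ± 37.1 to 1471 ± 1552 CPM, a log2 fold change of 5.29 ± 0.88 (SE) (edgeR adjusted p 0.000233). Its highest value, 3388 CPM, was also in end-point library 4, but did not stand alone. End-point libraries 5 and 6 had 3216 and 2728 CPM of miR-122-5p, beside 110 and 232 CPM of miR-223-3p. These correlations share library depth and time point.

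For the other members the closest smRNAs were different ones. MiR-217-5p, miR-325-3p and miR-337-3p were nearest to miR-223-5p (rho 0.77, 0.75 and 0.74), and miR-6946-3p, miR-7083-5p and miR-6975-3p to miR-146a-3p (rho 0.88, 0.86 and 0.84). MiR-3618-3p, miR-7025-3p and miR-5710 were nearest to miR-146b-5p (rho 0.84, 0.81 and 0.69), and miR-26a-5p, miR-412-5p and miR-21c to miR-21a-5p (rho 0.82, 0.76 and 0.76). None of these 12 was called between the time points by edgeR, and no other member was among the 3 closest of any member.

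Other miRNAs linked to inflammation or macrophages gave no call. Of a list of 13, which includes the NF-kB-responsive miR-9-5p and miR-132-3p, 9 had values and 8 were tested by edgeR. Of the 8, 0 were called higher and 0 lower, against 31.7% of all smRNAs tested called in either direction. An unadjusted edgeR p under 0.05 was reached by 2 of the 8, against 559 of all 1270. The median log2 fold change of the 8 was -0.06. DESeq2 called 2 of the 8 lower and limma-voom 1, against 284 and 240 of all 1270 smRNAs called lower, and neither called any of the 8 higher. The most abundant over the 17 libraries, miR-125b-5p, had 1255 ± 570 CPM at the start-point (SD, n = 10) and 1555 ± 948 CPM at the end-point (SD, n = 7), a log2 fold change of 0.75 (edgeR adjusted p 0.263). MiR-212-3p was more abundant at the start-point, with 1590 ± 729 CPM (SD, n = 10) against 564 ± 364 CPM at the end-point (SD, n = 7). Its log2 fold change was -1.21 (edgeR adjusted p 0.0724; DESeq2 adjusted p 0.0226).

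Markers of other cells were read beside these values. Of 6 lymphocyte and pan-leukocyte miRNAs 5 had values. Summed, they held 1022 to 3974 CPM at the start-point and 516 to 1668 CPM at the end-point, where library 4 was highest. Among the 17 libraries, end-point library 4 ranked 5 for miR-142a-3p (1069 CPM) and 2 for miR-150-5p. It ranked 13 for miR-342-3p, 14 for miR-181a-5p and 17 for miR-181b-5p. MiR-181b-5p was higher by 1.44 (edgeR adjusted p 0.0268) and miR-342-3p lower by a log2 fold change of -1.61 (edgeR adjusted p 0.0125). With the replicate block neither was called (edgeR adjusted p 0.237 and 0.157), and limma-voom did not call miR-181b-5p (adjusted p 0.0505). Of 9 intestinal epithelium markers 8 had values, summing to 3226 to 19689 CPM at the start-point and 2970 to 38181 CPM at the end-point, with 3 called higher and 3 lower of 8 by edgeR, against 31.7% of all smRNAs tested in either direction. With limma-voom 1 was called higher and 2 lower, and with the replicate block none of the 8 was called, against 4.98% of all. MiR-192-5p fell from 2175 ± 1764 to 225 ± 71.0 CPM, and miR-215-5p rose from 304 ± 360.1 to 3286 ± 4797 CPM (edgeR adjusted p 0.00427 and 0.00245, and 0.0911 and 0.295 with the block).

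Red cell markers (3 of 4 with values) summed to 263 to 1064 CPM at the start-point and 49.4 to 767 CPM at the end-point, and neither of the 2 tested was called by edgeR, with 1 at an unadjusted p under 0.05, while DESeq2 called miR-486a-5p lower (adjusted p 0.0451). Muscle markers (3 of 4 with values) summed to 400.0 to 2169 CPM and 334 to 12136 CPM. Of these, miR-143-3p was called higher by edgeR (adjusted p 0.00156, and 0.0826 with the block), and DESeq2 called miR-133a-3p lower as well (adjusted p 0.0132). Of all 1270 smRNAs tested, edgeR called 31.7% and DESeq2 called 521, and 559 had an unadjusted edgeR p under 0.05. The liver marker miR-122-5p ran from 8.01 to 118 CPM at the start-point and from 18.3 to 3388 CPM at the end-point, and was called with the block too (edgeR adjusted p 0.0400). The part of these cell types in the miR-223-3p result was not tested.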

How the data were processed

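Small RNAs of fecal exosomes were sequenced in 17 libraries of IL-10 KO mice with a QIAseq miRNA kit that adds unique molecular identifiers, per the labels' protocols. The authors deposited whole-number counts per smRNA and library without normalization. Whether identifiers removed PCR copies, and the aligner and counter, are not given in the sources used here; the submitters' processing notes name bcl2fastq and GRCm38. Listed smRNAs reached at least 10 counts in some library.

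Time points were compared with edgeR 4.0.16 in R 4.3.3 (quasi-likelihood F-test, TMM factors, filterByExpr, Benjamini-Hochberg over all smRNAs tested, called at an adjusted p under 0.05) on all 17 libraries, and sex with time point as covariate. CPM values are counts per library total; scaled log2 CPM used a prior count of 2 and TMM factors. Arm ratios were compared by an exact two-sided permutation test over libraries (scipy 1.17.1), for hairpins with both arms past the filter. The 17 libraries came from 10 mice: within a time point they were from separate mice except the 2 end-point libraries of mouse 1, and 6 mice gave libraries at both. The main edgeR fits and the permutation test over libraries had no term for mouse and treated the 17 libraries as independent. For the replicate block and the within-mouse comparisons, libraries were paired across time points by the labelled mouse. Deviations from group means in libraries of the same mouse correlated at 0.0943 on average (-0.072 to 0.260). No 2 libraries of a group agreed within sampling noise (chi-square per degree of freedom at least 8.93). Intervals are 95% Wilson intervals, and the floor is 3 counts; both cover counting error only.

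The members and lists were chosen with earlier results of these data known. Named are all members, the 3 smRNAs with the highest Spearman correlation to each tested member, miRNAs with a member's seed or within 3 edits, and, from the lists, those called and the most abundant; the epithelial and muscle miRNAs named are examples chosen after their values were seen. Alternatives were DESeq2 1.42.0 and limma-voom 3.58.1, other scalings and filters, the replicate block, subsets of libraries and each library left out. Scripts were tested on simulated counts.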

Additional observations from a re-analysis of the deposited data

Results flagged for a closer look

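Single libraries stood apart from the rest of their time point in 8 of the member groups and in 1 group of arm ratios. This was judged by Dixon's 95% critical value over 18 groups of 7 or 10 libraries. For normally distributed values chance marks about 1 in 20 groups. Whether that rate holds for plain CPM from low counts was not tested. At the end-point, library 4 was highest for miR-223-3p with 1737 CPM and for miR-21a-5p with 796 CPM. Library 7 was highest for miR-155-5p with 266 CPM, library 5 for miR-146a-3p with 270.1 CPM and library 3 for miR-146b-5p with 186 CPM from 6 counts. At the start-point, library 10 was highest for both miR-146a-3p with 627 CPM and miR-146b-5p with 476 CPM, and library 7 for miR-146b-3p with 152 CPM. Start-point library 6 had the lowest log2 ratio of miR-223-5p to miR-223-3p, -2.89.

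End-point library 4 was the highest of the 17 libraries for 63 of the 1270 smRNAs tested (4.96%). The miR-223-3p value there was 5.55 times the next highest library, and 15 of the 1270 smRNAs had at least that ratio between their highest and next library, 2 of them with the peak in end-point library 4.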

How the results depend on the processing

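MiR-223-3p was above 0 in all 12 alternatives and all 17 fits with 1 library left out, and was called in 9 and 16 of these, with edgeR, DESeq2 or limma adjusted p from 0.000245 to 0.326 over the 12. The count of 402 calls fell to 59 with the replicate block on mouse identity, to 49 with that block and the second mouse 1 library left out, and to 153 in males only. Without the libraries under 75000 counts, log2 fold changes turned to 0.14 for miR-223-5p, 0.26 for miR-146a-3p and 0.051 for miR-146b-5p. For arm balance, 90 calls became 53 with a mean of at least 20 counts, 30 in males, and 0 with the within-mouse (paired) replicate block, whose smallest exact permutation p, 0.03125, cannot pass over 334 hairpins (74 reached an unadjusted p under 0.05); there miR-223 had -1.94 with an exact permutation p of 0.125. For sex, calls were 1 with library totals, 35 with DESeq2 and 0 to 1 with a library left out. Sex differences turned to 0.070 (miR-223-3p) and 0.044 (miR-21a-5p) with totals, -0.042 (miR-223-5p) and -2.1e-05 (miR-146a-3p) with DESeq2, and -0.76 (miR-155-5p) without shallow libraries; with 1 library left out they spanned -0.99 to 0.050 (miR-223-3p), -0.18 to 0.35 (miR-223-5p), -0.54 to 0.50 (miR-155-5p), -0.33 to 0.49 (miR-146a-3p) and -0.063 to 0.81 (miR-146b-5p). Depth limits miR-155-5p and both miR-146b arms.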
